A study of Mus musculus with 16 samples.

Results

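Active promoters of wild-type (WT) mouse spermatids were described from 4 AutoCUT&RUN libraries, 2 made with an antibody against H3K4me3 and 2 with a control IgG, of the 16 libraries in the series. AutoCUT&RUN ties micrococcal nuclease to an antibody in permeable cells, and the DNA fragments it cuts free are sequenced from both ends. The libraries were chosen by genotype and antibody alone. Every distinct fragment was then assigned by its midpoint to the 4-kb windows that reach 2000 bp to each side of the starts of 51229 autosomal genes in the GENCODE vM21 annotation, of which 20807 are protein-coding.

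Both groups came from WT males, non-mated, 2 months old and siblings of animals that lack the X-linked H2A.B genes, in a line backcrossed to C57BL/6J. Live haploid cells were sorted from dissociated testes by Hoechst and propidium iodide staining, and the labels call them haploid spermatids WT with no stage. H3K4me3 was profiled with Active Motif Cat#39159 and the control was a rabbit anti-mouse IgG, Abcam ab46540. The replicate numbers are taken as 2 animals, each of which gave both an H3K4me3 and an IgG library, so the groups share their animals. H3K4me3 in bulk libraries cannot tell fewer marked cells from less mark per cell.

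H3K4me3, histone H3 trimethylated at lysine 4, is deposited by SET1 and MLL complexes around the starts of transcribed genes and at unmethylated CpG islands, and the nucleosomes that carry it flank a gap where the transcription machinery binds. Spermatids are haploid cells that build the acrosome and the flagellum and later exchange most histones for transition proteins and protamines. Many of their genes are used in no other tissue, and several are driven from short promoters by regulators such as CREM and RFX2.

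The sequences shown first are those upstream of the 3 protein-coding starts with the most H3K4me3 among those where it passed the test against IgG given below, and of the 3 members of the spermatid nuclear protein list with the most, each the 200 bases before the annotated start. They were read from the GRCm38.p6 assembly, 5′ to 3′ on the strand of the gene. Capitals mark matches on either strand to the cAMP response element (CRE, TGACGTCA), its shorter part (short CRE, TGACGT, which every CRE contains), a TATA box (TATAAA), a GC box (GGGCGG) and a CCAAT box (CCAAT). Gm21190, Gm21083 and Gm10354 are multi-copy genes in 1 cluster on chromosome 5. Hist1h2ba encodes the testis-specific H2B, Hist1h2aa the testis-specific H2A, and Hils1 a spermatid protein related to linker histone H1.
Gm21190, chr5:15529223-15529422, minus strand: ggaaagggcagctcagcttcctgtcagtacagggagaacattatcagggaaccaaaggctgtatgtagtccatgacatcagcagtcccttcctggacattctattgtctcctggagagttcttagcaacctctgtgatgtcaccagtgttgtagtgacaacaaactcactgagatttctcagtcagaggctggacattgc
Gm21083, chr5:15577133-15577332, plus strand: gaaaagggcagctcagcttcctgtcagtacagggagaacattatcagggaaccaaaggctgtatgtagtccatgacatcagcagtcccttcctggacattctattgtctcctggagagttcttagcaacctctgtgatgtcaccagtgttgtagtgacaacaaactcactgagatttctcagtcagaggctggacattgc
Gm10354, chr5:14978936-14979135, minus strand: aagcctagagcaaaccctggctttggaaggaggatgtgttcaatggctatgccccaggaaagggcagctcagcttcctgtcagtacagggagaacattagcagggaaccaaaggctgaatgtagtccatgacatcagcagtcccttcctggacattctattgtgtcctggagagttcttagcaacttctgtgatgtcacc
Hist1h2ba, chr13:23934157-23934356, minus strand: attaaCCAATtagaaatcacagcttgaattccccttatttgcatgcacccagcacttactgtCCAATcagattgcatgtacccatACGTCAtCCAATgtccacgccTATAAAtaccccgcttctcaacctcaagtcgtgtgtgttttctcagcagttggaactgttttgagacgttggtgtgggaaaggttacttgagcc
Hist1h2aa, chr13:23934262-23934461, plus strand: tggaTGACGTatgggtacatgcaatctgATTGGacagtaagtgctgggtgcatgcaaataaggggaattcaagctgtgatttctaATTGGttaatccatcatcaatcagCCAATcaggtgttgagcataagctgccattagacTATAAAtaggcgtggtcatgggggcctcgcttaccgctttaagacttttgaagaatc
Hils1, chr11:94967393-94967592, plus strand: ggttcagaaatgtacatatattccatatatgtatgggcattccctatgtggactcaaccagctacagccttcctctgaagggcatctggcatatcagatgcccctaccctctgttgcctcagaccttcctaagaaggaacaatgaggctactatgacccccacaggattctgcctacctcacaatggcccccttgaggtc

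The sequences of Gm21190 and Gm21083 differed at 1 of 200 bases. That of Gm10354 was 97.2% identical to the sequence of Gm21190 over 144 bases after a shift of 56 bases. Short reads can match several copies this similar, so fragments cannot be tied to 1 copy with certainty and the levels of these genes are uncertain. Hist1h2ba and Hist1h2aa are divergent genes whose starts lie 306 bp apart, and 95 of the bases printed for each are the same stretch of chromosome 13. The short CRE occupies bases 23934266 to 23934271 in both, and 2 CCAAT boxes are shared as well. No motif searched for occurred in the 200 bases of Hils1 or of the 3 cluster genes.

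The H3K4me3 libraries held 784360 and 2181065 distinct fragments, and the IgG libraries 162232 and 159611. H3K4me3 thus had 9.21 times the fragments of IgG. Levels are counts of distinct fragments in a 4-kb window per 1000000 distinct fragments of the library (CPM), and an even spread over the autosomes would give 1.62 CPM. In the IgG libraries 1 fragment was worth 6.16 and 6.27 CPM. Identical coordinates made up 62.2% to 83.4% of the deposited fragments, and each was counted once per library.

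Spermatid fragments of H3K4me3 were concentrated near gene starts. Of the autosomal fragments of H3K4me3 replicate 1, 33.5% (95% Wilson interval 33.4 to 33.6) lay within 2 kb of a gene start, and 34.3% (34.2 to 34.4) of those of replicate 2 did. IgG gave 17.3% (17.1 to 17.5) and 14.5% (14.3 to 14.7), against 7.38% of autosomal bases inside the windows. These intervals cover counting error within a library only and not the spread between animals, and the reads carry no molecular identifiers. The mean of 33.9% ± 0.582 (SD, n = 2) for H3K4me3 stood 17.99 percentage points above that of 15.9% ± 1.98 (SD, n = 2) for IgG, with a pooled SD of 1.46. The groups did not overlap, and the exact two-sided permutation test gave p = 0.333, the smallest that 2 libraries against 2 allow.

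Most of the IgG signal in these windows came from very few places. There were 37 starts with at least 10 fragments in each IgG library, in 20 regions that cover 0.0041% of autosomal bases, and they took 11.1% and 8.45% of all autosomal IgG fragments but 1.44% and 0.710% of those of H3K4me3. Gm10800 on chromosome 2, start 98667301, had 2001 and 1975 IgG fragments. Gm10718, Gm11168, Gm10719 and Gm10721, near the beginning of chromosome 9, had 1434 to 2088 in replicate 1 and 1064 to 1544 in replicate 2. These 5 predicted genes had the most IgG signal when only the highest of starts with overlapping windows was taken, and limma-voom, a linear model of log2 fragment counts, placed each below IgG in H3K4me3 (log2 differences -2.94 to -3.46, Benjamini-Hochberg adjusted p = 0.00555 to 0.0138). A row of pseudogenes on chromosome 1 was also among the 37, with 188 and 193 IgG fragments at Gm28437. So was the ribosomal RNA gene CT010467.1 on chromosome 17, with 18 and 13, which was called higher in H3K4me3. The last 2 genes were picked after their values were seen.

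With the windows of those 37 starts left out, IgG lay just under the share of bases and H3K4me3 well above it. The shares were then 32.5% and 33.8% in H3K4me3 and 6.97% and 6.61% in IgG. The 37 were picked by their IgG counts, so their removal lowers IgG by construction, and no such removal was made outside the windows. These shares thus do not show that IgG was even across the genome. Per protein-coding start, H3K4me3 averaged 11.8 and 13.1 CPM in the 2 libraries, and IgG averaged 1.39 and 1.14, over the 20794 such starts that remained. The pooled means differed 9.81-fold there, and 2.11-fold over all 20807 protein-coding starts, at 12.9 against 6.13 CPM.

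**Figure D1:**
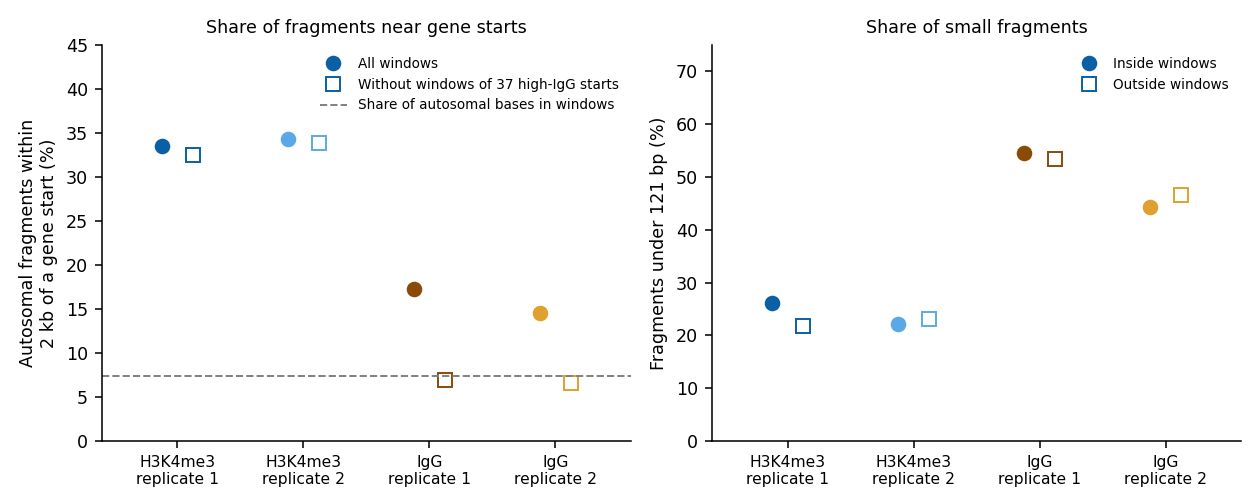
Left, percentage of autosomal distinct fragments within 2 kb of a gene start in each of the 4 libraries, with all windows (filled circles) and without those of the 37 starts with high IgG (open squares); the dashed line is the 7.38% of autosomal bases that the windows cover. Right, percentage of fragments of 120 bp or shorter inside and outside the windows, those 37 left out. The IgG points fall just under the dashed line on the left once the 37 windows are removed, and on the right both IgG libraries lie above both H3K4me3 libraries.

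Start by start, 17603 of the 51229 had at least 10 fragments over the 4 libraries and entered the limma-voom test. H3K4me3 exceeded IgG at 11567 of them, which is 65.7%, at an adjusted p under 0.05, and 142 starts went the other way. With libraries thinned to equal numbers of fragments 1223 were called higher, and with a filter of 1 fragment 10433 were called higher and 17976 lower. The 11567 starts are referred to as called. The filter was met mostly through the deeper H3K4me3 libraries, and 80.0% of the called starts had 0 fragments in both IgG libraries, so the share called says little of how many starts lie above background. With any 1 of the 4 libraries left out, 0 starts were called higher, and 24 to 373 starts had an unadjusted p under 0.05 in either direction. One group then has a single library, assumed to vary like the pair in the other group, and the fit has little left to estimate the spread from. With the animal as a block, 11279 starts were called, 10512 of them also called without it, and 211 were lower.

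A rule on counting error alone was therefore set beside the test after the data were seen. It asks that the lower 95% Poisson bound of each H3K4me3 library lie above the upper bound of both IgG libraries pooled, which is 11.5 CPM where no IgG fragment was found. Of all 51229 starts, 5524 met it, which is 10.8%, and 3934 of these were protein-coding. Among the 5524, 5353 were also called by limma-voom, 96.9% of the shorter list and 46.3% of the longer one. Levels in the 2 H3K4me3 libraries followed each other across protein-coding starts (Pearson r = 0.936 of log2 values with 1 added, 20794 starts, a description since starts are not independent replicates), and those in the 2 IgG libraries barely did (r = 0.0925). Of these starts, 83.5% and 84.8% had 0 fragments in IgG replicates 1 and 2, and those of high IgG were left out. The low r thus says little of how repeatable the background was.

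H3K4me3 varied strongly with the base composition of the promoter. Starts were sorted by the CpG content of the 300 bases from 250 before to 50 after them, since unmethylated CpG-rich promoters are the usual sites of the mark. Among protein-coding starts, again without the 13 of high IgG, with high CpG content, 4511 of 7846 were called and 29.0% met the counting rule. With intermediate content 1915 of 4479 were called and 20.9% met the rule. With low content 1337 of 8469 were called and 8.55% met it. The filter of 10 fragments was met by 6226, 2817 and 1992 of these starts, of which 72.5%, 68.0% and 67.1% were called. The called counts thus differed mostly through the filter. The median level was 16.2 CPM at high, 8.31 at intermediate and 0.458 at low CpG content. IgG averaged 1.398, 1.33 and 1.11 CPM per start in the same order.

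Among called starts alone, which were chosen by their H3K4me3, the median was 24.6 CPM at high, 23.2 at intermediate and 26.7 at low CpG content. Of the 42 called starts above 100 CPM, 40 were of the low class, and 36 lay on chromosomes 5 or 14, where many genes are multi-copy and their levels uncertain. A CRE, on either strand from 250 bases before to 50 after the start, was found at 3.90% of called and 2.43% of all protein-coding starts. The GC box, bound by SP1-type factors, was found at 58.1% of called starts and at 43.7% of all. TATAAA was rarer among called starts, 6.92% against 12.7%. CCAAT was found at 39.4% of called and 38.6% of all. These are counts of letters and say nothing of which factors were bound.

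Levels were higher where another start was near. Such windows also take in fragments of the neighboring start, and the part of this overlap in the levels was not tested. Among protein-coding starts with an opposite start within 1 kb upstream, 1552 of 2308 were called and the median was 23.99 CPM. Among those with no other start within 4 kb, 4051 of 13842 were called and the median was 1.73. Of the starts tested, 76.8% with the opposite start and 67.4% with no other start were called. Of these solitary starts the median was 11.01 at high and 0.458 at low CpG content. Starts of long noncoding RNAs that share a bidirectional promoter were called in 120 of 190 cases, antisense RNAs in 830 of 2913 and lincRNAs in 1072 of 5209, beside 22.6% of all 51229 starts. Of those tested, 75.9%, 67.3% and 60.6% were called, beside 65.7% of all starts tested. Processed pseudogenes, which are copied from RNA without their promoter, were called in 442 of 8924 and met the counting rule in 1.38%.

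**Figure D2:**
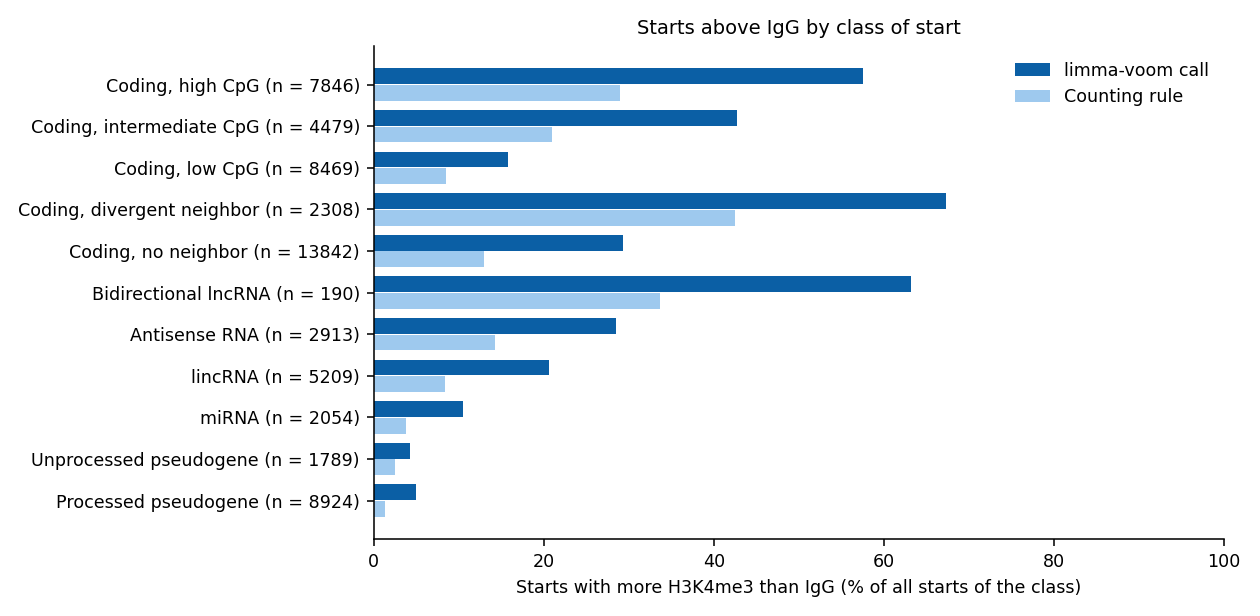
Percentage of all starts of a class with more H3K4me3 than IgG, by the limma-voom call (dark bars) and by the counting rule (light bars), with the number of starts in each class; divergent means an opposite start within 1 kb upstream and no neighbor means no other start within 4 kb. Both rules order the CpG classes alike, from 57.5% to 15.8% and from 29.0% to 8.55%, and protein-coding starts with a divergent neighbor have the longest bars. Of the starts tested, 72.5% were called at high and 67.1% at low CpG content.

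The 2 lengths of fragment took different positions around the start. Small fragments, 120 bp or shorter and so below the length of nucleosomal DNA, were densest 30 and 31 bp upstream of protein-coding starts in H3K4me3 replicates 1 and 2, the 37 starts with high IgG left out. Large fragments, 150 bp or longer and so of nucleosome size, peaked 130 and 131 bp downstream and 172 and 189 bp upstream. Between these peaks the large fragments dipped 2 bp after the start in replicate 1 and 6 bp before it in replicate 2, by log2 values of -0.68 and -0.56 against the downstream peak. Positions are of midpoints smoothed over 51 bp.

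The height of the small-fragment peak differed between the H3K4me3 libraries. Density within 200 bp of the start exceeded that 1500 to 2000 bp away by a log2 value of 1.71 for small fragments in replicate 1 and by 1.14 in replicate 2. In IgG the values were 0.88 and 0.70 and the densities far lower, 0.274 and 0.176 CPM of small fragments per start and kb within 200 bp against 1.56 and 1.12 in H3K4me3. The difference in log2 enrichment was 0.63 with a pooled SD of 0.299 (exact permutation p = 0.333, n = 2 per group). For large fragments the values were 0.97 and 0.76 in H3K4me3 and 0.84 and 0.08 in IgG, which overlapped (difference 0.41, pooled SD 0.394, exact permutation p = 0.667, n = 2 per group).

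Over all protein-coding starts, the 13 with high IgG included, small-fragment enrichment of IgG was higher than without them. Its large-fragment enrichment was lower in replicate 1 and higher in replicate 2. Small fragments then gave 1.70 and 1.15 in H3K4me3 and 1.28 and 1.29 in IgG, which overlapped (exact permutation p = 1, n = 2 per group). H3K4me3 was higher by 0.42 in the first animal and lower by a value of -0.14 in the second. Large fragments gave 0.95 and 0.76 in H3K4me3 and 0.71 and 0.60 in IgG (difference 0.20, pooled SD 0.107, exact permutation p = 0.333, n = 2 per group).

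Large fragments of H3K4me3 extended further into the gene than upstream of it. With the high-IgG starts left out, the log2 ratio of fragments 1 to 1000 bp downstream to those 1 to 1000 bp upstream was 0.35 and 0.28 in H3K4me3 and -0.06 and 0.08 in IgG. The difference was 0.30 with a pooled SD of 0.0777 (exact permutation p = 0.333, n = 2 per group). With them kept, IgG was at 0.64 and 0.72 and H3K4me3 at 0.38 and 0.29, so the sign of the difference, then -0.34, turned on those windows. With them kept it was -1.60 at starts with no other within 4 kb and -0.00984 with 2 kb taken to each side. Small fragments were near balance in H3K4me3, at 0.06 and 0.02, and leaned upstream in IgG, at -0.67 and -0.36.

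The lean of H3K4me3 was not the same at all kinds of start. At called starts with no neighbor within 4 kb it was 0.47 and 0.39 for large fragments. At called starts with a divergent start within 1 kb upstream it was -0.02 and -0.01. At called starts of low CpG content it was 0.51 and 0.52, and at those of high content 0.18 and 0.13. IgG, with 304 and 247 large fragments at the called starts with no neighbor, leaned by 0.30 and 0.56 there, which overlapped H3K4me3. At those of low CpG content IgG gave -0.32 and 1.08. Starts that were not called still showed the same outline in H3K4me3, with the large fragments highest 116 and 123 bp downstream and the small ones 22 and 28 bp upstream.

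**Figure D3:**
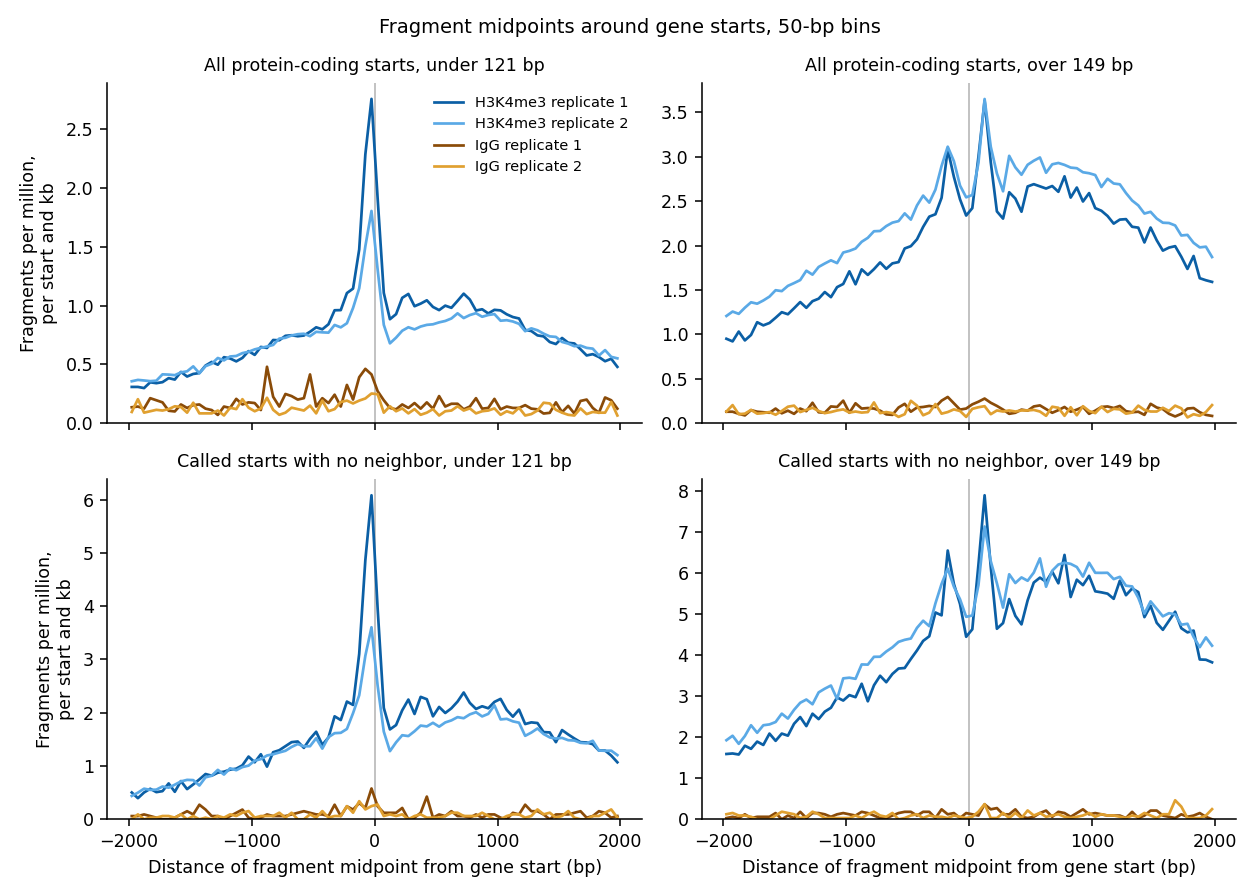
Midpoint density of fragments of at most 120 bp (left) and at least 150 bp (right) by distance from the start in the 4 libraries, in 50-bp bins oriented by strand and scaled to CPM per start and kb. The upper row shows the 20794 protein-coding starts without high IgG and the lower row the 4051 called ones with no neighbor within 4 kb; small H3K4me3 fragments form 1 peak about 30 bp upstream, large ones a peak on each side of a dip, and both IgG libraries lie below both H3K4me3 libraries near the start.

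H3K4me3 held fewer small fragments than IgG wherever the fragments lay. With the windows of high IgG left out, 26.1% and 22.1% of H3K4me3 fragments within 2 kb of a start were small, and 54.5% and 44.3% of IgG fragments were. Outside the windows the shares were 21.9% and 23.1% in H3K4me3 and 53.3% and 46.5% in IgG. Near starts, log2 of small per large fragments was -1.54 ± 0.186 (SD, n = 2) in H3K4me3 and 0.16 ± 0.355 (SD, n = 2) in IgG, a difference of -1.70 (exact permutation p = 0.333). With all windows it was -1.55 against -0.75, a difference of -0.80 (exact permutation p = 0.333, n = 2 per group).

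Whether promoters were richer in small fragments than the rest of the genome depended on the replicate. Within H3K4me3 replicate 1 the ratio was higher inside the windows than outside by a log2 value of 0.33, and within replicate 2 it was lower by a value of -0.09. IgG gave 0.01 and -0.15. The replicates of H3K4me3 thus went opposite ways, and replicate 1 was also the one with more repeated coordinates, 83.4% against 62.2%, whose part in this was not tested.

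The level of H3K4me3 at a start was repeated in the other animal. Once the starts of high IgG were left out, IgG differed far less between the same starts. Protein-coding starts, without the 13 of high IgG, were put in 5 bins of 4158 or 4159 by their level in 1 H3K4me3 library and measured in the other. The 13 were chosen by their IgG counts, so leaving them out lowers IgG by construction, on average from 6.13 to 1.27 CPM per start. Gm10800, with a mean H3K4me3 of 1682 CPM, was among them. Ordered by replicate 1, the bins had means of 0.624, 0.958, 5.28, 19.7 and 38.8 CPM in replicate 2. Ordered by replicate 2, they had 0.397, 0.810, 5.13, 17.8 and 34.7 in replicate 1. The lower bins thus lay under the 1.62 of an even spread, and the steep part of the curve fell between the second and the fourth.

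IgG, pooled over its libraries, went from 0.791 (95% Poisson interval 0.744 to 0.840) in the lowest to 2.41 (2.33 to 2.49) in the highest bin ordered by replicate 1. It was 1.22 (1.17 to 1.29) in the next to highest. In the highest bin IgG replicate 1 averaged 2.99 CPM and replicate 2 averaged 1.82, so both control libraries were above an even spread at the starts with the most H3K4me3. IgG replicate 1 had 0.914 small per large fragments there against 1.54 in the lowest bin, and 0.910 against 1.502 with the bins ordered by H3K4me3 replicate 2. IgG replicate 2 had 0.856 against 0.938 in the first order and 0.858 against 0.794 in the second, so its direction turned with the order.

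Small fragments of H3K4me3 were scarcest at intermediate levels. In the bins ordered by replicate 1, replicate 2 had 0.332, 0.284, 0.237, 0.295 and 0.342 small per large fragments. In those ordered by replicate 2, replicate 1 had 0.355, 0.312, 0.2996, 0.395 and 0.420. Both libraries were lowest in the third bin and highest at the starts with the most H3K4me3. High CpG content was found at 8.83% of starts in the lowest bin, 46.1% in the third, 60.8% in the fourth and 56.4% in the highest, ordered by replicate 1.

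**Figure D4:**
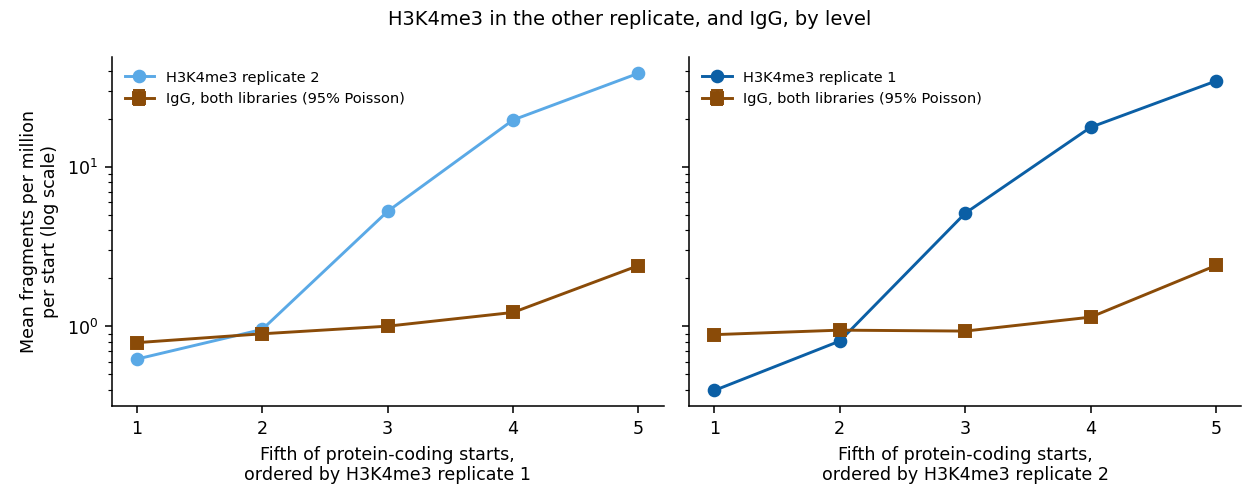
Mean CPM per protein-coding start (log axis) in 5 bins of starts, those of high IgG left out, ordered by H3K4me3 replicate 1 (left) or 2 (right), for the H3K4me3 library not used for the order (circles) and for both IgG libraries pooled (squares, with 95% Poisson intervals). H3K4me3 climbs to 38.8 and 34.7 in the highest bin while IgG goes from 0.791 to 2.41 on the left and from 0.888 to 2.41 on the right.

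Among called protein-coding starts, the most H3K4me3 lay in a multi-copy gene cluster on chromosome 5. The 10 highest called protein-coding starts without overlapping windows all fell between 14914899 and 15714271, and Speer4c, Speer4d and Speer4e, members of a family named for its expression in spermatogenesis, were among them. Gm21190 had 392 and 814 H3K4me3 fragments, or 499.8 and 373 CPM, and 4 and 3 IgG fragments. Pooled over libraries that is 18.7 times the IgG level (95% counting interval 9.05 to 46.6). Over the 10 starts H3K4me3 ranged from 394 to 501 CPM in replicate 1 and from 280.1 to 373 in replicate 2, with 4 to 10 IgG fragments in all.

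The fragments at these 10 starts lay mostly in the gene, with 4.995 to 10.9 times as many in the 2 kb downstream as in the 2 kb upstream. All 10 were taken from called starts, so that each passed limma-voom was fixed by the choice (adjusted p up to 0.0250). The 10 measured members of the Speer family all passed limma-voom, beside 70.3% of protein-coding starts tested. All 10 met the counting rule, beside 18.9% of all protein-coding starts. Their median was 99.6 CPM, and none had high CpG content. Of the 100 highest called protein-coding starts, 41 were on chromosome 5, 32 on chromosome 14 and 12 on chromosome 17. Many of these are predicted genes in families of near-identical copies, so the levels may hold reads from several copies.

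Below those families, other genes with symbols of their own followed. They were picked after their values were seen. Mroh2a on chromosome 1 had 107 and 110.5 CPM and Trpm8, a cold-sensing ion channel gene next to it, had 113 and 101.3, with 5 and 1 IgG fragments in all. Abcg2, a transporter of the cell membrane, had 85.4 and 99.95 with 6 IgG fragments. Tcp10c and Tcte3, genes of the t-complex on chromosome 17, had 86.2 and 78.3 on average, and both had 1 IgG fragment. Another annotated start lay 28 bp from that of Trpm8 and 49 bp from that of Tcte3, so fragments there cannot be given to 1 gene. Tcp10a, also on chromosome 17, had 75.2 on average, and whether it shared reads with Tcp10c was not tested.

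Genes of late sperm development lay well above the median of all protein-coding starts, and near or above the median of called ones. The median was 4.36 CPM over protein-coding starts and 24.6 over the called ones, which were chosen by their H3K4me3. Of protein-coding starts tested 70.3% were called, and 18.9% of all protein-coding starts met the counting rule. The lists below should be read against these values. Of 13 measured spermatid nuclear proteins 9 were called and 6 met the counting rule, with a median of 23.2. Of 22 acrosome and fertilization genes, 17 were called and 13 met the rule, with a median of 29.4. Of 23 genes of the flagellum 18 were called out of 21 tested and 13 met the rule, and the median was also 29.4. Of 16 sperm kinases and metabolic isozymes 13 were called and 11 met the rule, with the highest median of the 13 lists, 37.3. Of 16 postmeiotic regulators 14 were called and 11 met the rule, with a median of 33.1.

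Among nuclear proteins the highest 3 were 2 histones and a histone-related protein. Hist1h2ba had 35.7 and 44.9 CPM, Hist1h2aa, whose window is nearly the same, 30.6 and 41.7, and Hils1 25.5 and 42.2, each with 0 fragments in both IgG libraries. Folds against 0 IgG fragments are given as bounds against a floor of 3 fragments over both IgG libraries, 9.32 CPM, which is lower than the upper end of 11.5 CPM of the two-sided interval in the counting rule. Against that floor these are at least 4.33-fold, 3.88-fold and 3.63-fold higher (limma-voom adjusted p = 0.00264, 0.00271 and 0.00434). Tnp1 and Tnp2, the transition proteins that replace histones first, had 21.7 and 24.8 and 22.9 and 34.8 CPM, with 0 and 1 IgG fragments (adjusted p = 0.00264 and 0.0435). The lowest were H2afy, a macroH2A variant, with 7.65 and 11.004, and Prm1 with 3.82 and 3.67.

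Prm1 and Prm2, the protamines that pack the sperm genome, had more fragments at other annotated starts than at those used here. Prm1 had 3 and 8 H3K4me3 fragments at the first base of the gene, chromosome 16 position 10805839, and was not called (adjusted p = 0.0598). At its other annotated transcript start, 8953 bp away at 10796886, it had 10 and 55, or 12.7 and 25.2 CPM, with 0 IgG fragments, but that window overlaps the one at the start of Prm2, position 10796134. Prm2 had 10.2 and 23.8 at the start used, where it was called (adjusted p = 0.0219), and 40.8 and 36.2, with 2 IgG fragments, at a start 4029 bp away, position 10792105. That window overlaps the one at the start of Prm3, position 10790914, so fragments there cannot be given to 1 of the genes. These other starts were looked up after the values were seen.

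Other listed genes also had more signal at a later annotated start. For 21 of 281 listed genes the highest of the annotated transcript starts had over 10 CPM more than the gene start. Piwil1, a piRNA-binding protein of meiosis and spermatids, went from 0.917 to 37.1 and Cfap43 and Tekt4, proteins of the sperm axoneme, from 0.458 to 40.3 and from 0.688 to 32.6. The median of the flagellum list went from 29.4 to 36.2, and those of testis somatic cells and differentiated tissue genes went from 0.458 to 0.752 and 0.867. Taking the highest of several starts can only raise a level.

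For the acrosome, Acr, the protease acrosin, had 52.3 and 59.1 CPM with 3 IgG fragments, a pooled ratio of 6.15 (95% counting interval 2.07 to 30.1, adjusted p = 0.0156). Acrbp, which binds proacrosin, had 33.1 and 61.9 with 1 IgG fragment. Acrv1, a protein of the acrosomal vesicle, had 50.997 and 40.3 with 0, at least 4.90-fold above the IgG floor (adjusted p = 0.00264). The lowest were Tmem95 and Dcst2, membrane proteins needed for fertilization, at 17.2 and 13.0 on average, and both were called. Izumo1, the sperm ligand of egg fusion, had 33.1 and 40.8 but 10 IgG fragments and did not pass (adjusted p = 0.607).

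For the flagellum, Smcp, a protein of the mitochondrial sheath, had 67.6 and 49.5 CPM with 1 IgG fragment. Tekt1, a tektin, had 43.3 and 46.8 and Dnah8, an outer dynein arm heavy chain, 44.6 and 42.6, both with 0 IgG fragments and at least 4.83-fold and 4.68-fold above the floor. Each passed limma-voom (adjusted p = 0.0202, 0.00264 and 0.00264). Cfap43 and Tekt4 were at the bottom of the list at their gene starts, as given above.

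Among kinases and isozymes, Tssk1, a testis-specific kinase, had 45.9 and 70.6, Ldhc, the sperm lactate dehydrogenase, 45.9 and 58.7, and Tssk2 40.8 and 53.6 CPM, with 1 IgG fragment each (adjusted p = 0.0200, 0.0202 and 0.0216). Cyct, the testis cytochrome c, and Cox6b2, a testis subunit of cytochrome oxidase, were the lowest at 15.3 and 10.7, and were called with 0 IgG fragments each. The level of Cox6b2 lay below the upper bound of 11.5 CPM where no IgG fragment was found. Gapdhs, the sperm isozyme of glyceraldehyde-3-phosphate dehydrogenase, had 31.9 and 43.6, while Gapdh itself had 2.55 and 3.21 and was too low to test. At its best transcript start Gapdh had 3.52 on average.

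Among regulators, Crem, a transcription factor of the postmeiotic program, had the highest level at 42.1 and 54.1, with 4 IgG fragments, and did not pass (adjusted p = 0.0736), but did with the animal as a block (adjusted p = 0.0337). Its pooled ratio was 4.10 (95% counting interval 1.57 to 15.2). Sox30, needed for round spermatids, had 34.4 and 47.2 and Brwd1, a bromodomain protein, 37.0 and 43.1, with 1 IgG fragment each (adjusted p = 0.0257 and 0.0246). Rfx4, at 9.63 on average at its gene start and 41.4, with 4 IgG fragments, at another annotated start, was called at the former, and Piwil1 was at the bottom at its gene start. The gene start of Rfx4 had 0 IgG fragments, and its level there lay below the 11.5 CPM bound for such starts.

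Genes of earlier germ cells were called in part. Of 24 meiotic prophase genes 14 were called of 20 tested, 7 met the counting rule, and the median was 19.1 CPM. Sycp3 and Syce3, of the synaptonemal complex, had 24.2 and 43.6 and 21.7 and 43.1 with 1 IgG fragment each (adjusted p = 0.0406 and 0.0464), and Syce2 had 22.9 and 41.7 with 0. Stra8, the inducer of meiosis, and Rec114, of the meiotic break machinery, had 3 and 2 fragments in all. Of 19 genes of DNA methylation and the piRNA pathway 8 were called of 13 tested, and Mael, which acts in transposon silencing, led with 29.3 and 60.5. Tdrd9, a helicase of the pathway, had 31.9 and 44.5 and was not called (adjusted p = 0.0794), Ddx4 followed, and Piwil4 and Tet3 had 1 and 0 fragments.

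Of 21 spermatogonial genes 5 were called of 13 tested and 2 met the counting rule, with a median of 4.84, beside 4.36 over protein-coding starts. The 5 are 23.8% of the list, beside 37.3% of all protein-coding starts. Ddx4, a germline helicase also used later, had 33.1 and 39.4 and passed (adjusted p = 0.00264). Lin28a, an RNA-binding protein of progenitors, was at 53.5 in replicate 1 and 12.4 in replicate 2 and did not pass (adjusted p = 0.0633), but did with the animal as a block (adjusted p = 0.0251). Bcl6b, a repressor in stem cells, had 26.8 and 39.0 and passed. Sall4 and Zbtb16, factors of undifferentiated spermatogonia, had 0 H3K4me3 fragments in both libraries, which allows up to 3.82 and 1.38 CPM at 3 fragments per library.

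Genes of other testis cells had a median of 0.458. Of 26 such genes 3 could be tested and 2 were called, Inhbb and Inha, the inhibin subunits, at 9.33 and 9.18 on average, and none met the counting rule. Their summed level was 31.9 and 37.1 CPM, and 6 had no H3K4me3 fragment. Cyp17a1, an enzyme of androgen synthesis in Leydig cells, and Csf1r, a macrophage receptor, were among those 6, and Sox9 of Sertoli cells had 0 and 4 fragments. Amh, also of Sertoli cells, had 4.15 on average and was not called (adjusted p = 0.0992).

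The label of haploid spermatids was set beside defining markers, which were chosen with earlier results of these data known. The 8 spermatid markers summed to 205 and 229.7 CPM. Of these 7 were called, Prm1 being the exception, beside 70.3% of protein-coding starts tested. The 4 spermatocyte markers summed to 67.6 and 83.4, and the 4 of spermatogonia to 19.1 and 14.7. Per marker these are 25.7 and 28.7 for spermatids, 16.9 and 20.9 for spermatocytes and 4.78 and 3.67 for spermatogonia. Among tested markers, 2 of 3 of spermatocytes, 1 of 2 of spermatogonia and 0 of 1 of Sertoli cells were called. Leydig, myoid, macrophage and endothelial markers each summed to at most 2.55 CPM in either library, and those of Sertoli cells to 5.10 and 6.42. In IgG the sums were 6.16 and 6.27 for spermatid markers and the same for those of spermatogonia, 0 and 18.8 for those of spermatocytes, 0 and 6.27 for Sertoli cells and 6.16 and 0 for Leydig cells. Whether other germ cells in the sort gave the levels of the spermatocyte and spermatogonial markers was not tested.

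Genes used in every cell were also marked. Of 20 housekeeping genes 13 were called of 18 tested and 8 met the counting rule, with a median of 24.3. Eif4a2, an initiation factor, had 48.4 and 59.6 and 2 IgG fragments, all in replicate 1, and did not pass (adjusted p = 0.0517), but did with the animal as a block (adjusted p = 0.0381). Actb had 43.3 and 48.6 and Polr2a, the largest subunit of RNA polymerase II, 35.7 and 47.7, with 1 IgG fragment each (adjusted p = 0.0209 and 0.0248). Gapdh and Eef1a1 were the lowest, the latter with 0.867 at the gene start and 22.02 at a transcript start 8310 bp away. Of 79 ribosomal protein genes 61 were called of 77 tested, with a median of 19.6 and 26 past the counting rule.

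Developmental genes were mostly low although many have CpG-rich promoters. Of 33 developmental regulators, 22 of them of high CpG content, 3 were called of 10 tested, and the median was 1.504 CPM. Sox17 had 37.0 and 27.5 with 0 IgG fragments (adjusted p = 0.00293) and Sox1 14.02 and 16.5, also with 0. Lhx9, a LIM homeobox factor, passed in the other direction, with 2 and 4 fragments against 3 and 3 in IgG (adjusted p = 0.00304). Six2, a factor of kidney progenitors, had 8.77 on average and did not pass (adjusted p = 0.376), and Olig2 and Nkx2-5 had 0 fragments. Of 39 Hox genes 4 were called of 15 tested, none met the counting rule, and the median was 1.504.

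Pluripotency genes were split. Klf2 and Klf4, zinc finger factors, had 47.2 and 53.2 and 42.1 and 38.1 CPM and were called (adjusted p = 0.00264 and 0.0269). Zfp42 had 9.99 on average and was not (adjusted p = 0.0630), and Fgf4 and Dppa3 had 1 and 0 fragments, so that 2 of 16 genes were called and the median was 0.867. Of 35 genes of differentiated tissues only Ckm, a muscle creatine kinase, could be tested and was called, at 10.2 and 23.8. It had 0 IgG fragments and did not meet the counting rule. Lor of the epidermis and Acta1 of muscle had 3.42 and 2.01 on average, and Lyz2 and Krt5 were at 0.

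Olfactory and vomeronasal receptor genes were close to the floor, and replication-dependent histone genes were higher. Olfactory receptors had a median of 0.229 CPM over 1127 starts, of which 4 met the counting rule, and vomeronasal receptors the same median over 326, of which 1 did. Of 67 replication-dependent histone genes 27 were called of 55 tested and 21 met the rule, with a median of 8.85 and a highest mean of 68.3 at Hist2h3c2. Copies of these histone genes are alike enough that reads can be misplaced among them.

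**Figure D5:**
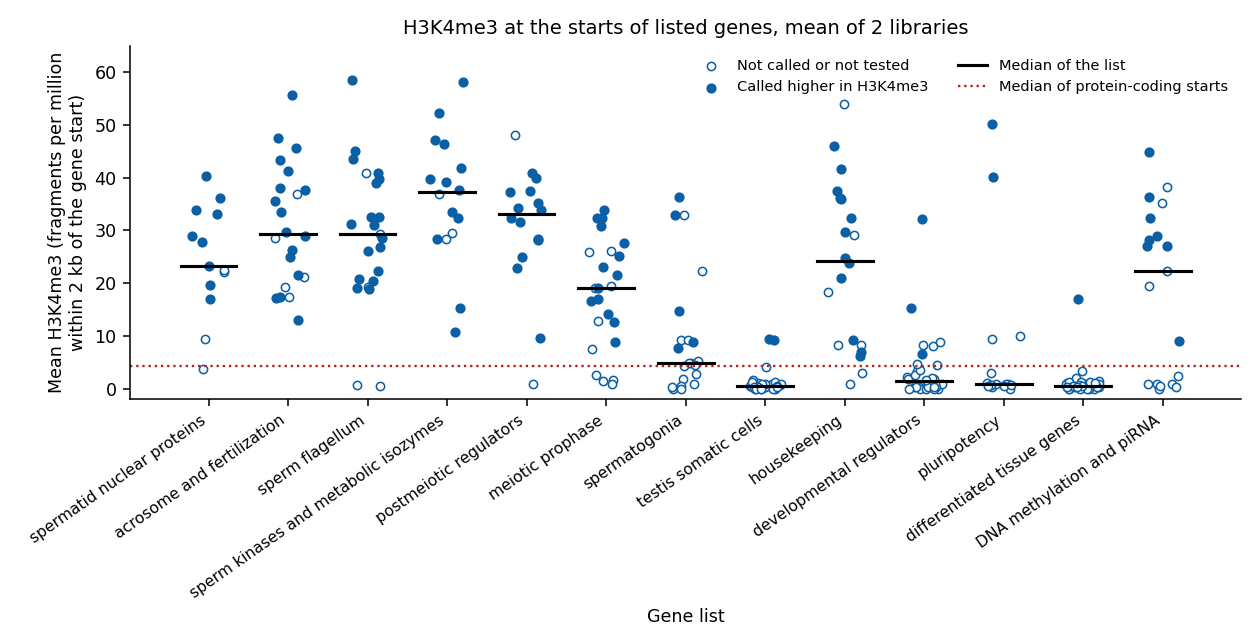
Mean H3K4me3 of both libraries at the start of each listed gene (points, filled where called), by list, in CPM within 2 kb of the gene start; black bars are list medians and the dotted line is the median of 4.36 over protein-coding starts. Medians of the 5 sperm lists and of housekeeping genes lie between 23.2 and 37.3, and those of testis somatic cells, developmental regulators, pluripotency and differentiated tissue genes lie below the dotted line.

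Fragment length was compared among promoters with enough fragments of both lengths. Among 141 called protein-coding starts with at least 50 small and 50 large H3K4me3 fragments, the median log2 value of small per large fragments was -1.12. Kdm3a, an H3K9 demethylase that spermatids need to express protamine genes, had 52 small and 50 large, a log2 value of 0.06 and the highest of the 141. Its H3K4me3 fragments of all lengths were 16 in replicate 1 and 103 in replicate 2. Nup98, a nuclear pore protein, was at -0.31 with 63 and 78, and Gtsf2, related to a piRNA pathway factor, at -0.33 with 58 and 73. The lowest were the predicted genes Gm3005 and Gm3317 on chromosome 14 and 5031410I06Rik on chromosome 5, at -2.23, -2.22 and -2.05. These 6 were chosen for the ratio, which is given as a description. The filter limits which starts can reach each end. A low ratio needs many large fragments, and a start with few fragments enters only if rich in small ones.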

How the data were processed

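The authors mapped paired-end reads to mm10 with Bowtie2 (version 2.3.4.3 per the submitters' processing notes) and deposited for each library a list of fragments with chromosome, start, end and length, unscaled and not pooled. Although the study's methods describe removal of duplicates, coordinates recur in the deposited lists. Counts were therefore made here from distinct coordinates. Members and lists were chosen with earlier results of these data known.

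Counts per start (at least 10 over the 4 libraries) were tested with limma-voom (limma 3.58.1 in R 4.3.3), with 0.5 added to each count, totals over autosomes, X and Y as library sizes, and Benjamini-Hochberg adjustment over all starts tested. The calculation was tested on simulated data. Single values per library were compared by exact two-sided permutation tests. The replicate number is taken as the animal, from the run names that H3K4me3 and IgG share in the labels and from the study's methods. Deviations of libraries with the same number correlated at r = -0.00183 over 17603 starts. With 0 fragments in both IgG libraries at 80.0% of called starts, this r says little of what libraries of 1 animal share.

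Named genes are the 10 highest called protein-coding starts, in each of 13 lists the 3 highest and 2 lowest, the 5 highest in IgG with at least 3 fragments in each library, the 3 starts at each end of the small to large ratio with at least 50 fragments of each, and 10 fixed genes, and of overlapping windows only the highest was taken for the starts highest in H3K4me3 or IgG. The counting rule, the removal of high-IgG starts, the other transcript starts and the highest genes with symbols of their own were added after the data were seen. Sequences came from GRCm38.p6. Scripts ran under Python 3.11.15 with pandas 2.3.3, NumPy 2.4.6, SciPy 1.17.1 and matplotlib 3.10.9.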

Additional observations from a re-analysis of the deposited data

How the results depend on the processing

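The share of fragments near starts was higher in H3K4me3 under each of the 11 alternatives (differences of 10.2 to 26.4 percentage points), and the small to large ratio was lower under each of 10 (-0.59 to -1.70). The number of called starts was 9938 to 13849 under 10 alternatives. It moved to 1223 with libraries thinned to equal fragments, where 4957 starts could be tested, to 5524 by the counting rule and to 0 with any library left out. With a filter of 1 fragment, 10433 starts were called higher and 17976 lower, so that 36.7% rather than 98.8% of calls were higher. The enrichment of small fragments, 0.14 over all starts, turned to -0.33 with every deposited fragment, -0.0277 with a flank of 1000 to 2000 bp, -0.35 at starts with no other within 4 kb, and ranged from -0.13 to 0.41 with a library left out, the lowest without H3K4me3 replicate 1. That of large fragments, 0.20, turned to -0.00119 with every deposited fragment and to -0.0918 at starts with no other within 4 kb. The downstream lean turned from -0.34 to 0.30 without the starts of high IgG, and was -1.60 at starts with no other within 4 kb and -0.00984 with 2 kb to each side. The causes were not tested beyond that removal. The replicate block gave 11279 starts, with 1055 of the 11567 lost and 767 gained. For the single values the block gives the same mean difference by construction. Of spermatogonial genes 7 rather than 5 were then called, of developmental regulators 2 rather than 3, and of the other 11 lists up to 1 more. Depth limits IgG, since 71.6% of protein-coding starts had 0 IgG fragments in both libraries.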
